A study of Homo sapiens with 6 samples.

Results

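The 43 genes described here encode the contractile actin cytoskeleton and its transcriptional control by serum response factor. They were listed by gene symbol and fall into 9 roles: SRF with its MRTF coactivators, actins, tropomyosins, non-muscle myosin II chains with myosin light chain kinase, calponins with transgelins and caldesmon, actin crosslinkers, adhesion linkers, LIM domain proteins, and proteins of actin assembly and turnover. All 43 were among the 40205 genes of the count table, and 41 had enough reads to be tested among 15047 genes in all. The exceptions were CNN1 and CNN3.

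RNA was sequenced from cells labelled HepG2, a human hepatocellular carcinoma line, in 3 untreated samples (Control) and 3 samples exposed to cationic liposomes (CLs) for 24 h. The liposomes are carriers built from the positively charged lipid DOTAP, cholesterol and a PEG-linked phospholipid. The labels give the dose as 120 μM, and the study's text uses both μM and μg/ml with this number. No other treatment or genetic change is given for either group. The study calls the samples independent, but neither it nor the labels say whether they came from separate cultures, so the p-values measure only the spread between these samples, which may be technical.

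Actin polymerises into filaments that non-muscle myosin II pulls on, that tropomyosins coat, and that alpha-actinins and filamins tie together. Vinculin, talin and zyxin fasten the filaments to integrin adhesions. Unpolymerised actin binds the MRTF coactivators (MKL1 and MKL2) and holds them in the cytoplasm; when filaments form, MRTFs are released, enter the nucleus and act with SRF on promoters that hold a CArG box. Many genes for actin, tropomyosin and adhesion proteins are textbook SRF targets, so that the filament system feeds back on its own transcription.

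Library totals lay between 11418527 and 13998946 assigned reads. Levels are given as CPM, read counts scaled by library size, on which the floor of 3 reads corresponded to 0.208 to 0.263. Reads of 9 hepatocyte markers went against the HepG2 label: summed, they numbered 4, 16 and 15 in the Control samples and 76, 2 and 0 in the CLs samples, TTR was at 0 in every sample and ALB was at 0 outside CLs-1. The cells are therefore called only cells labelled HepG2. CLs-1 stood apart, with 482 reads of 7 steroidogenic cell markers against 11 to 32 elsewhere and 476 reads of 3 red cell markers against 0 to 4 elsewhere. It also held 1044 reads of the collagen gene COL1A2 against 0 to 2 elsewhere and 58 of THY1 against 0 to 1. The part of this difference in the results was not tested, and some results are also given below without CLs-1.

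Most contractile genes were lower in CLs-treated samples, while none passed the criteria on its own. Of the 41 tested members, 39 had a log2 fold change under 0, against 47.9% of all genes tested. The median was -0.33 for the members and 0.01 for all genes, on the log2 scale of CLs over Control. No member passed the call (adjusted p under 0.05 in edgeR's quasi-likelihood test and a fold above 1.5 or below 0.67), which 13 genes or 0.0864% of those tested did. The study, with the same cut-offs but another test (EBSeq), lists CNN2 and FHL2 among its differentially expressed genes. An unadjusted p under 0.05 was reached by 19 members, 46.3%, each lower in CLs. Over all genes, 3.62% were lower with such a p and 5.81% had one in either direction. The members were chosen with earlier results of these data known, and the other genes were not matched to them in level. The contrasts with all genes, here and below, are therefore description and no test of the list.

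The groups did not overlap for 20 members, 48.8%, each time with every CLs sample below every Control sample, against 6.18% of all genes in that direction. For any 1 gene, p = 0.1 is the smallest value that permuting 3 against 3 samples allows in an exact test (two-sided). DESeq2, run on the same counts, called 7 members (ACTB, ACTG1, TPM1, MYLK, CNN2, ZYX and FHL2), each lower in CLs, where it called 0.711% of all genes, 0.605% as lower. Without CLs-1, 21 members had an unadjusted p under 0.05 and were lower, with 5.47% of all genes doing so, and 40 of 41 were lower. Leaving out another sample gave 14 members (4.04% of all genes) without Control-1, 13 (2.64%) without Control-2 and 22 (3.33%) without Control-3. It gave 15 (3.06%) without CLs-2 and 13 (3.01%) without CLs-3, and from 37 to 40 members were lower in these fits. In bulk RNA, fewer cells of a type and less RNA per cell cannot be told apart.

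**Figure D1:**
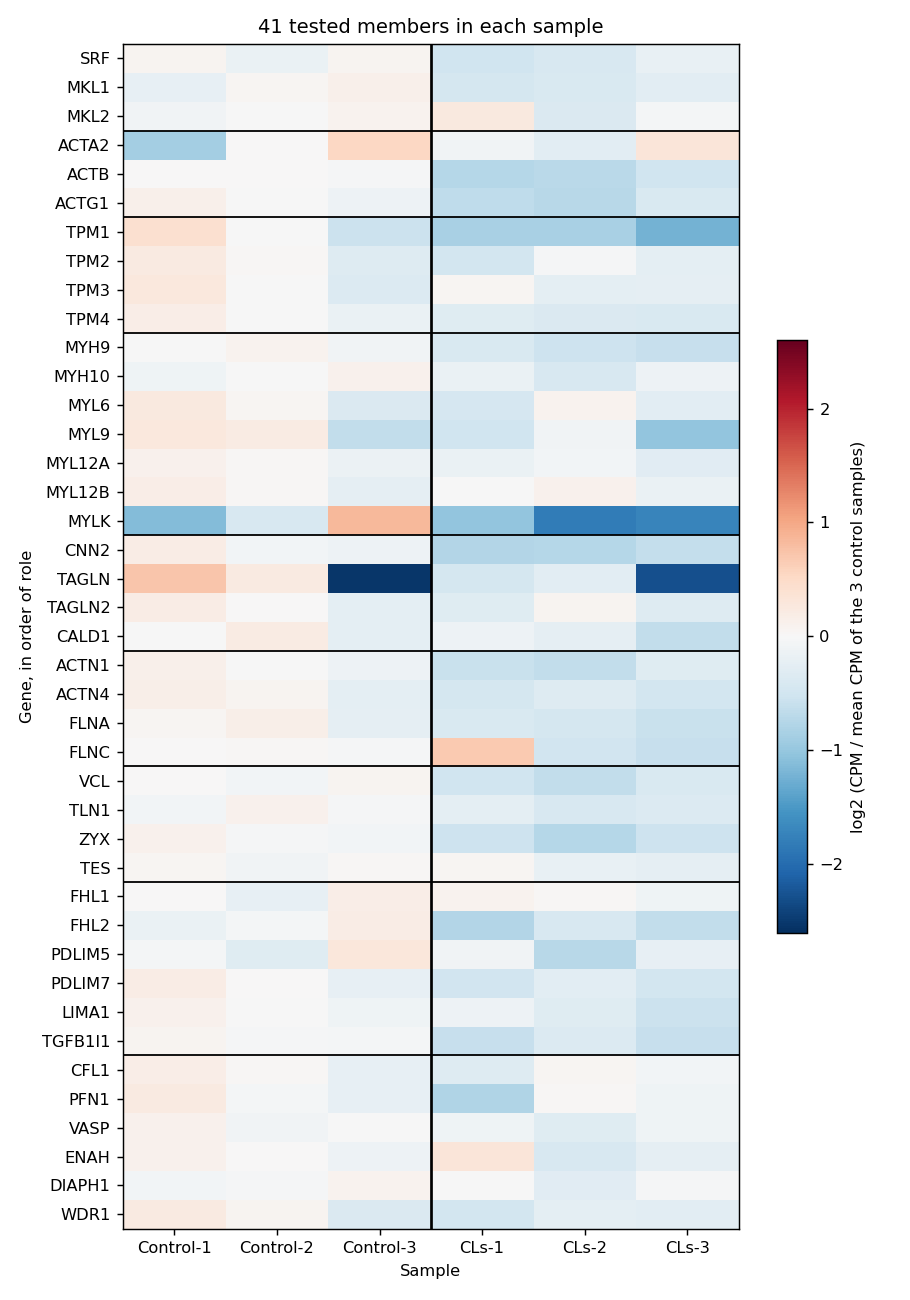
Heat map of the 41 tested members (rows, grouped by role) in the 6 samples (columns); colour is log2 of each sample's CPM over the mean of the 3 Control samples. Most rows are lower in all 3 CLs columns, the rows of assembly and turnover genes are paler, and TAGLN is lowest in Control-3 and CLs-3.

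The shift was visible in the summed reads. Together the 43 genes took 2.83, 2.74 and 2.42% of all reads in the Control samples and 1.99, 2.00 and 2.01% in the CLs samples (95% exact Clopper-Pearson intervals within 0.0095 percentage points of each value, counting error only). The lowest Control sample thus lay above the highest CLs sample, and the CLs samples lay closer together than the Control samples. ACTB and ACTG1 alone accounted for 0.923, 0.891 and 0.856 percentage points of the reads in Control and 0.569, 0.543 and 0.657 in CLs.

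Promoter sequences are shown here because SRF binds the CArG box (a pair of C, 6 bases that are each A or T, and a pair of G; it reads the same kind of word on both strands). RefSeq promoters of GRCh38.p14, from 250 bases before to 50 after the start, were found for 40 members and missing for ACTB, MYL9 and TAGLN. An exact box was present in 11 of the 40 (27.5%), against 438 of 27305 genes of the table (1.6%) and 3 of 66 other actin and SRF pathway genes (4.55%). By window rather than gene, 15.7% of the members' windows and 1.29% of all windows held it. Since the list holds known SRF targets, this share is a description of its members. In the stretches below, written 5′ to 3′ on the gene's strand, capitals mark the box.

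SRF, chr6:43171209-43171268, plus strand: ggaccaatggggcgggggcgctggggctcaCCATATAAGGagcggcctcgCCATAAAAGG
ACTG1, chr17:81512859-81512918, minus strand: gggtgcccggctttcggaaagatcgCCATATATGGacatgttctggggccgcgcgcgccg
TPM4, chr19:16067340-16067399, plus strand: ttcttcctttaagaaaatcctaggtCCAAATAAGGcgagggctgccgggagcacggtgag
MYLK, chr3:123620608-123620667, minus strand: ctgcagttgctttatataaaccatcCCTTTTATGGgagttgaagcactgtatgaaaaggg
CNN2, chr19:1026494-1026553, plus strand: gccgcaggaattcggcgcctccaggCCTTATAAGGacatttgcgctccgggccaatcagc
FLNA, chrX:154374694-154374753, minus strand: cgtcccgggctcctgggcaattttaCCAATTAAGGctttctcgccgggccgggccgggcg
FHL2, chr2:105399076-105399135, minus strand: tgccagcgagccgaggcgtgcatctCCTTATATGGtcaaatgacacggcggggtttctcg
TGFB1I1, chr16:31473129-31473188, plus strand: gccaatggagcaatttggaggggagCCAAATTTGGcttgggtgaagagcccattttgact

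The SRF promoter held boxes that began 30 and 10 bases before its start. The other boxes shown began 94 (ACTG1, MYLK and FLNA), 173 (TPM4), 89 (CNN2), 59 (FHL2) and 51 bases (TGFB1I1) before a start of their gene. A further FHL2 box began 101 bases before another of its starts and 85 bases before yet another. A gene could have several starts (83 windows for the 40 members), so a box need not lie before every transcript of its gene. Which transcripts the reads came from was not tested. ACTN1, TES and FHL1 also had a box. Of these 11 genes, 10 were lower in CLs, 9 of them with an unadjusted p under 0.05, and their median log2 fold change was -0.51. Of the 27 tested members whose windows held no exact box, 26 were lower, 9 with an unadjusted p under 0.05, with a median of -0.25. The difference between these sets was not tested. Over all genes tested, 47.9% were lower in CLs and 3.62% were lower with an unadjusted p under 0.05. TES and FHL1, with a box, had log2 fold changes of -0.12 and 0.01.

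SRF and MKL1 were lower in CLs, and the MKL2 groups overlapped. SRF, the DNA-binding factor itself, measured 74.2, 62.3 and 74.2 CPM in Control and 49.2, 52.9 and 61.7 in CLs. The groups came close to each other without overlapping, and the log2 fold change was -0.36 (SE 0.14, unadjusted p = 0.0269, adjusted p = 0.736). MKL1, the coactivator MRTF-A, measured 68.9, 83.1 and 87.6 CPM in Control and 58.6, 60.7 and 66.0 in CLs. Every CLs sample was again below every Control sample, with a log2 fold change of -0.37 (SE 0.14, adjusted p = 0.686). MKL2, or MRTF-B, measured 32.5, 34.5 and 36.8 CPM in Control and 41.1, 26.5 and 33.6 in CLs, where treated samples lay on both sides of the untreated ones.

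MYOCD, myocardin, is the third coactivator of this family, known from smooth and cardiac muscle. It is in the list of SRF partners rather than among the 43. It had 35, 19 and 12 reads in the Control samples and 2, 3 and 0 in the CLs samples, each of the latter at or under the floor of 3 reads. The 5 summed CLs reads against 66 in Control, scaled for library size, gave a ratio of 0.0704 (95% exact interval 0.0221 to 0.173, counting error only). Its adjusted p of 0.088 in edgeR missed the criteria, and the adjusted p in DESeq2 was 0.00527. MYOCD had enough reads to be tested only through its Control samples, which favours a lower value in CLs. Its ratio and p-values are therefore description and no independent support.

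**Figure D2:**
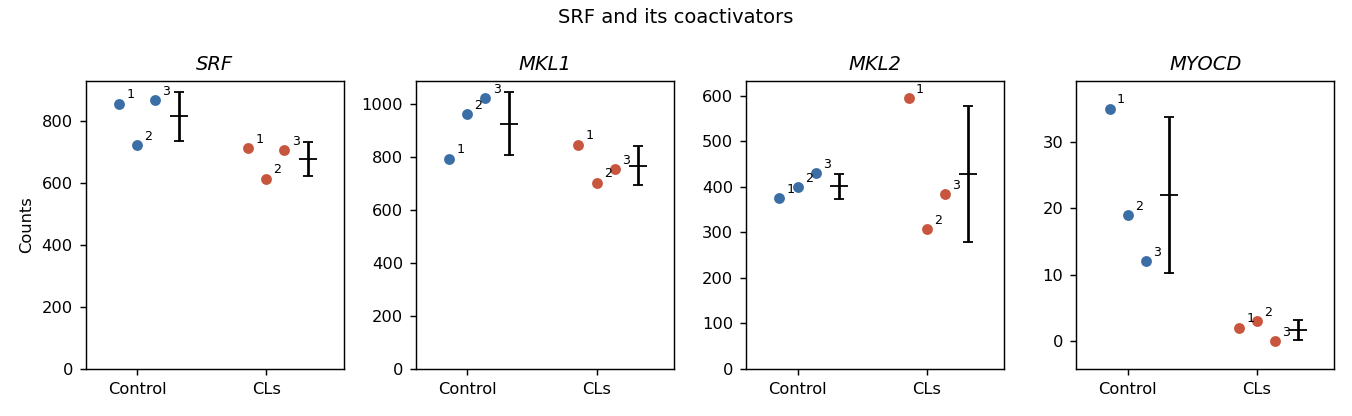
Reads per sample, not scaled for library size, of SRF, MKL1, MKL2 and MYOCD, with Control and CLs samples as points and the group mean with its SD. MYOCD has 12 to 35 reads in Control and 0 to 3 in CLs, whereas the MKL2 groups overlap.

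The cytoplasmic actins carried the most reads of all members. ACTB, beta-actin, measured 4501, 4532 and 4392 CPM in Control and 2671, 2762 and 3131 in CLs. The Control samples were tightly placed, at 4475 ± 73.4 (SD, n = 3), and the CLs mean of 2854 ± 243.9 (SD, n = 3) lay well outside their spread. Its log2 fold change was -0.65 (SE 0.15, adjusted p = 0.205). ACTG1, gamma-actin, measured 4940, 4485 and 4137 CPM in Control and 2846, 2729 and 3437 in CLs. The groups were separate and the log2 fold change was -0.59 (SE 0.16, adjusted p = 0.327). ACTA2, smooth muscle alpha-actin, measured 4.25, 7.94 and 11.3 CPM in Control and 7.41, 6.48 and 9.73 in CLs, with overlapping groups and a log2 fold change of 0.00 (SE 0.32).

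The balance between ACTB and ACTG1 was examined through their shares of the actin reads. Within the reads of the 3 actins, ACTB took 49.8 ± 1.93% in Control and 48.7 ± 1.36% in CLs (SD, n = 3), and ACTG1 took 50.2 ± 1.97% and 51.1 ± 1.35%. The groups overlapped, and the mean differences, which nearly mirror each other, were -1.04 and 0.992 percentage points. With 3 samples a group no test of these shares could reach 0.05. The coding sequences of both genes are 91.3% identical, so reads may be split between them unevenly by the counting. Named pseudogenes of ACTB held 1.26 to 1.96% of the reads of the gene and its pseudogenes, and those of ACTG1 0.304 to 0.407%.

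Among tropomyosins, which coat the filament and set the access of myosin, TPM1 had the lowest ratio of CLs to Control. TPM1 measured 413.0, 307.0 and 209.9 CPM in Control and 173.2, 172.0 and 131.4 in CLs. The lowest Control sample was still above the highest CLs sample, and the log2 fold change was -0.96 (SE 0.22, adjusted p = 0.206). With the sample number as a block, TPM1 was the only member past the criteria, which 0.452% of all genes passed. TPM4 measured 841.6, 743.4 and 661.1 CPM in Control and 597.7, 580.1 and 571.9 in CLs. Here too the groups were separate, with a log2 fold change of -0.36 (SE 0.14, adjusted p = 0.712). TPM2 and TPM3 overlapped between groups, with log2 fold changes of -0.25 (SE 0.18) and -0.14 (SE 0.17).

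The share of TPM1 among tropomyosin reads was lower in each CLs sample than in any Control sample. TPM1 took 17.0, 15.0 and 12.8% of the reads of the 4 tropomyosins in Control and 10.8, 10.4 and 8.60% in CLs (exact 95% intervals within 0.48 percentage points, counting error only). TPM3 took 19.9 ± 0.484% in Control and 23.2 ± 2.96% in CLs (SD, n = 3), with the groups separate in the other direction. In 13 such shares over 6 families, no permutation test could go below 0.1, and the lowest adjusted p was 0.371. Reads of named pseudogenes made up 13.8 to 16.6% of the reads of TPM3 and its pseudogenes.

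Non-muscle myosin II is built from heavy chains (MYH9, MYH10), essential light chains (MYL6) and regulatory light chains (MYL9, MYL12A, MYL12B), whose phosphorylation by MYLK starts contraction. MYH9 measured 1410, 1519 and 1334 CPM in Control and 1083, 980.7 and 940.0 in CLs. The groups were separated by more than the range within either of them, with a log2 fold change of -0.50 (SE 0.14, adjusted p = 0.327). MYH10, the other heavy chain, measured 345.2, 373.4 and 407.4 CPM in Control and 332.5, 282.8 and 342.1 in CLs. Its groups did not overlap, but the distance was small, with a log2 fold change of -0.23 (SE 0.14, unadjusted p = 0.115).

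MYLK measured 6.77, 11.2 and 26.7 CPM in Control and 7.34, 4.24 and 4.56 in CLs, from 49 to 311 reads per sample. CLs-1 was above Control-1, and Control-3 was far above the rest. The log2 fold change of -1.46 (SE 0.43, adjusted p = 0.392) was the lowest of all members. Without Control-3 it was -0.73 (adjusted p = 0.793).

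The light chain genes had overlapping groups. MYL9 measured 414.8, 396.2 and 220.7 CPM in Control and 239.6, 323.2 and 169.5 in CLs, with a log2 fold change of -0.49 (SE 0.26, unadjusted p = 0.0851). In both groups its lowest sample was the one numbered 3, and the log2 fold change was -0.75 without CLs-2 and -0.29 without CLs-3. MYL6, MYL12A and MYL12B had log2 fold changes of -0.19, -0.18 and -0.02, and that of MYL12B was 0.00, on the positive side, with scaling by library size alone. MYL12A and MYL12B are 95.2% identical in coding sequence, so their separate values are uncertain.

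CNN2, a calponin that binds actin filaments and restrains myosin, had the smallest p-value of the 43 genes. It measured 131.6, 109.4 and 106.1 CPM in Control and 68.1, 69.6 and 75.3 in CLs. The means were 115.7 ± 13.9 and 71.0 ± 3.80 CPM (SD, n = 3), and the log2 fold change was -0.71 (SE 0.14, unadjusted p = 0.000292, adjusted p = 0.105). CNN1, the smooth muscle calponin, had 17 reads in CLs-1 and 0 in each other sample. CNN3 had 23 reads in CLs-1, 3 and 1 in CLs-2 and CLs-3, and 0, 0 and 2 in Control. Both were thus seen mainly in the CLs sample that also held the reads of steroidogenic and red cell markers.

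TAGLN, transgelin or SM22-alpha, measured 307.6, 217.4 and 32.4 CPM in Control and 136.0, 153.9 and 38.2 in CLs. The samples numbered 3 were far below the others in both groups, and the log2 fold change of -0.76 had an SE of 0.64 (adjusted p = 0.998). Leaving out 1 sample moved it to -0.19 (Control-1), -0.36 (CLs-3) or -1.26 (Control-3). Without both samples numbered 3, a setting chosen after seeing the data, it was -0.85 (unadjusted p = 0.000831, adjusted p = 0.223). TAGLN2 and CALD1, caldesmon, overlapped between groups, with log2 fold changes of -0.18 (SE 0.17) and -0.32 (SE 0.17). Without the samples numbered 3, 17 members had an unadjusted p under 0.05 and were lower (2.68% of all genes), and 37 of 41 were lower.

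**Figure D3:**
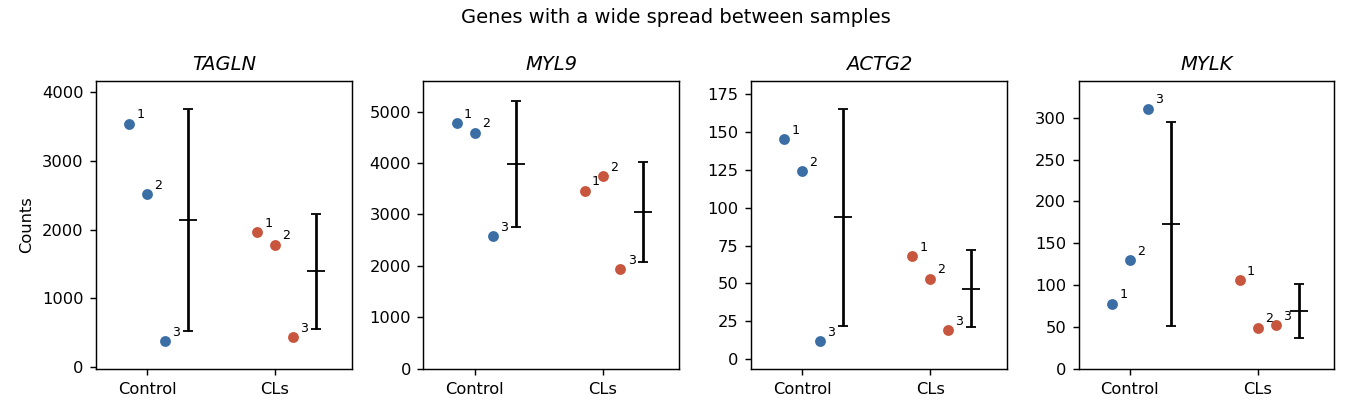
Reads per sample, not scaled for library size, of TAGLN, MYL9, ACTG2 and MYLK, with Control and CLs samples as points and the group mean with its SD. TAGLN has 378 reads in Control-3 and 436 in CLs-3 against 1781 to 3542 in the others, ACTG2, a smooth muscle actin outside the 43, is lowest in the same samples, and MYLK is highest in Control-3.

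Smooth muscle markers were summed over 7 genes, of which 3 were tested and none passed the criteria. They measured 42.7 to 50.6 CPM in Control and 30.9 to 36.0 CPM in CLs, and 1 of the 7 had no more than 3 reads in any sample. SMTN, smoothelin, carried most of the sum, at 35.6 ± 3.30 CPM in Control and 29.4 ± 0.459 CPM in CLs (SD, n = 3). DES and LMOD1, at most 11 reads in any sample, had higher means in CLs. ACTG2, another of them, had 145, 124 and 12 reads in Control and 68, 53 and 19 in CLs. Fibroblast and pericyte markers, most of whose reads came from COL3A1, overlapped, at 729.9 to 1098 CPM in Control and 807.7 to 954.1 CPM in CLs. The part of these markers in the members' values was not tested.

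Of the 4 crosslinkers, 3 were lower in CLs with an unadjusted p under 0.05, and none passed the criteria. ACTN1, an alpha-actinin that bundles stress fibres, measured 682.4, 612.6 and 567.7 CPM in Control and 413.2, 398.4 and 497.9 in CLs, with a log2 fold change of -0.51 (SE 0.14, adjusted p = 0.347). ACTN4, the other non-muscle alpha-actinin, measured 1438, 1347 and 1073 CPM in Control and 938.3, 1017 and 920.4 in CLs, with a log2 fold change of -0.42 (SE 0.15, adjusted p = 0.653). The ACTN4 groups were separated by a narrow margin, since Control-3 lay close to CLs-2.

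FLNA, the filamin that joins filaments into a network and to membrane receptors, measured 3802, 4082 and 3126 CPM in Control and 2772, 2668 and 2465 in CLs. The groups did not overlap and the log2 fold change was -0.48 (SE 0.16, adjusted p = 0.53). FLNC, the muscle filamin, measured 12.6, 12.9 and 12.3 CPM in Control and 20.2, 8.90 and 8.32 in CLs. CLs-1 lay above and the other CLs samples below the closely spaced Control samples, so its near-zero log2 fold change changed sign with the scaling. Without CLs-1 it was -0.55 (unadjusted p = 0.0122).

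Of the 4 proteins that fasten filaments to adhesions, 3 were lower in CLs with an unadjusted p under 0.05, and none passed the criteria. ZYX, zyxin, which recruits actin assembly factors to strained fibres, measured 160.3, 144.7 and 141.2 CPM in Control and 102.0, 88.8 and 101.7 in CLs. Its group means of 148.8 ± 10.2 and 97.5 ± 7.55 CPM (SD, n = 3) gave a log2 fold change of -0.61 (SE 0.13, adjusted p = 0.173). The groups lay farther apart than the range within either of them. VCL, vinculin, which reinforces the link from talin to actin, measured 347.7, 327.9 and 361.4 CPM in Control and 240.5, 223.3 and 262.3 in CLs, with a log2 fold change of -0.51 (SE 0.13, adjusted p = 0.26).

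TLN1, talin, the protein that binds integrin tails, measured 458.4, 518.4 and 472.4 CPM in Control and 404.8, 363.8 and 377.4 in CLs. The groups were separate and the log2 fold change was -0.34 (SE 0.13, adjusted p = 0.699). TES, testin, measured 77.5, 70.3 and 76.0 CPM in Control and 77.4, 65.2 and 63.3 in CLs, and these groups overlapped.

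Among LIM domain proteins, which dock on filaments and adhesions, 4 of 6 were lower with an unadjusted p under 0.05. FHL2, a cofactor that also binds SRF, measured 397.3, 431.7 and 513.6 CPM in Control and 263.0, 334.4 and 287.2 in CLs, with a log2 fold change of -0.60 (SE 0.15, adjusted p = 0.26). TGFB1I1, or Hic-5, measured 32.8, 30.4 and 29.9 CPM in Control and 20.6, 24.1 and 20.6 in CLs, with a log2 fold change of -0.51 (SE 0.15, adjusted p = 0.362). Both genes had separate groups, and both had a CArG box in the stretches printed above.

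PDLIM7, an Enigma-family protein of stress fibres, measured 127.7, 112.7 and 96.3 CPM in Control and 79.3, 92.7 and 80.3 in CLs. LIMA1, or EPLIN, which stabilises filaments, measured 342.0, 311.9 and 292.0 CPM in Control and 286.8, 251.7 and 213.3 in CLs. Their log2 fold changes were -0.42 (SE 0.15) and -0.33 (SE 0.15), with narrow gaps between the groups. PDLIM5 overlapped at -0.31 (SE 0.20). FHL1 measured 37.3, 32 and 41.6 CPM in Control and 39.3, 37.6 and 34.4 in CLs, a log2 fold change of 0.01 (SE 0.15).

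**Figure D4:**
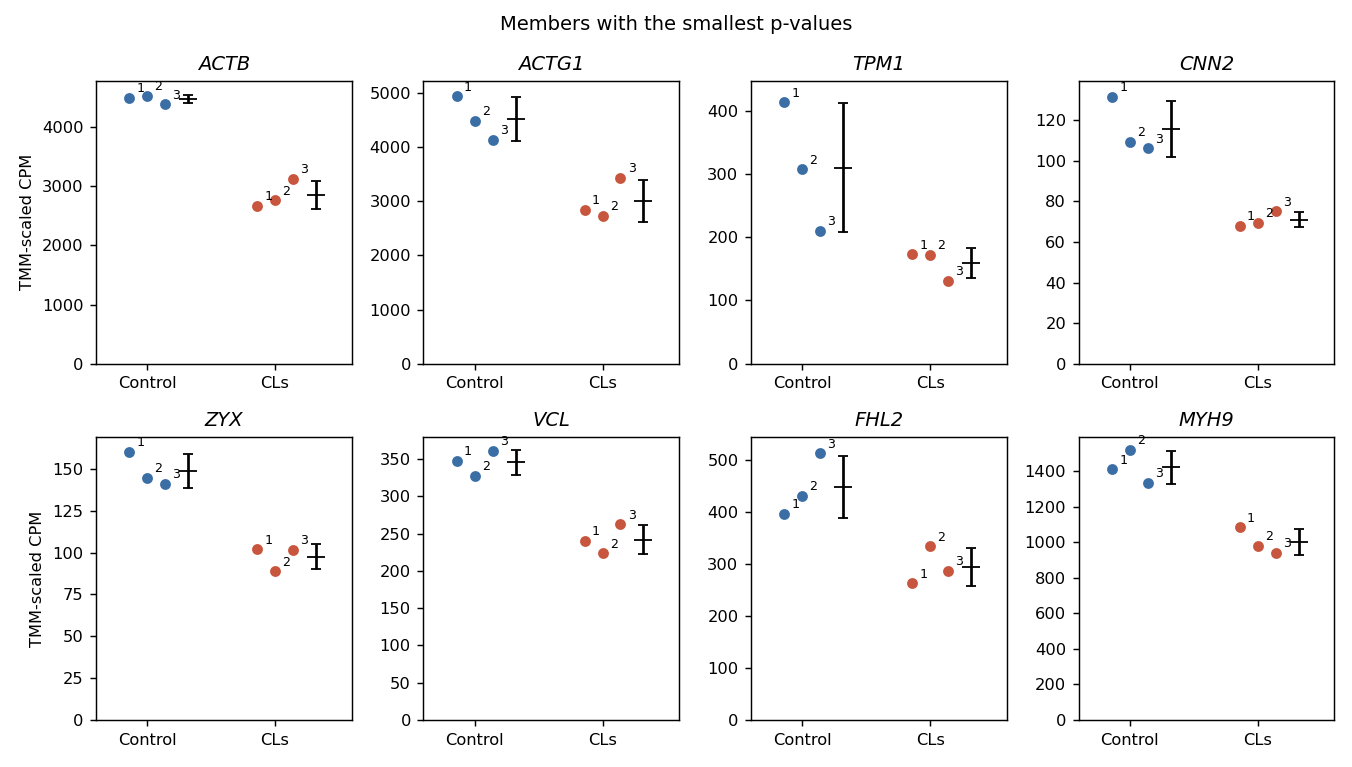
CPM per sample of the 8 members with the smallest p-values (CNN2, ZYX, ACTB, TPM1, VCL, FHL2, ACTG1 and MYH9), with points for the samples and the group mean with its SD. In each panel the 3 CLs points lie below the 3 Control points, and the Control samples of TPM1 range from 209.9 to 413.0 CPM.

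Genes of filament assembly and turnover showed the smallest differences of the 9 roles, with a median log2 fold change of -0.14 and none of 6 at an unadjusted p under 0.05. CFL1, cofilin, which severs filaments, ENAH, which extends them, and DIAPH1, a formin that nucleates them, had log2 fold changes of -0.11 (SE 0.16), -0.07 (SE 0.18) and -0.10 (SE 0.13). VASP, a relative of ENAH, was at -0.17 (SE 0.13) with groups that did not overlap, and WDR1, a cofactor of cofilin, was at -0.33 (SE 0.17, unadjusted p = 0.0726). PFN1, profilin, which delivers actin monomers, measured 1065, 883.7 and 783.4 CPM in Control and 526.9, 924.1 and 846.3 in CLs, with CLs-1 alone below all others. Its log2 fold change was -0.25 (SE 0.21) with all samples and -0.04 without CLs-1. Between 29 and 34% of the reads of PFN1 and its named pseudogenes fell on the pseudogenes, so its level depends on how such reads were assigned. The difference between roles was not tested.

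**Figure D5:**
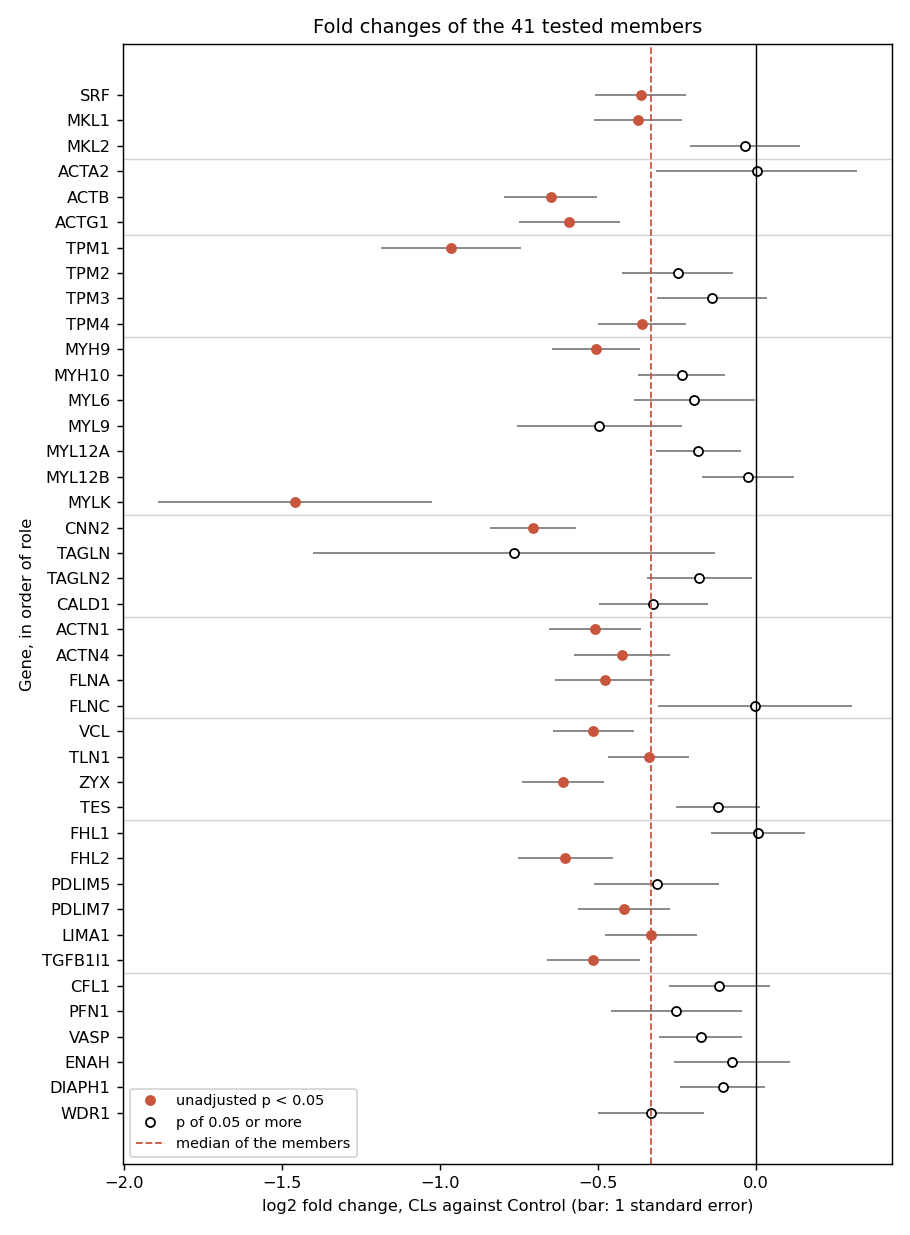
Log2 fold change (CLs over Control, horizontal axis) of the 41 tested members by role, with bars of 1 SE; filled points have an unadjusted p under 0.05 and the dashed line marks the members' median of -0.33. The 19 filled points all lie below 0, and none is among the assembly and turnover genes.

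Levels between genes were compared per kilobase of the principal transcript. ACTB and ACTG1 led in Control at 2329 ± 38.2 and 2004 ± 178.5 CPM per kb (SD, n = 3), followed by MYL6, the essential light chain, at 1026 ± 216.4. ACTB and ACTG1 kept the first places in CLs, at 1486 ± 127.0 and 1332 ± 168.3. The gap between them there was smaller than the SD of ACTG1 but larger than that of ACTB. The tropomyosins TPM2, TPM1, TPM4 and TPM3 were at 411.6, 295.5, 294.9 and 267.6 CPM per kb in Control, and the last 3 differed by less than their spread. At the other end stood ACTA2 at 5.81, MKL2 at 4.02, MYLK at 1.49, FLNC at 1.39 and CNN3 at 0.0264 CPM per kb in Control, with CNN1 at 0.

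Other parts of the actin machinery were counted in the same way. Over 70 tested genes of 5 other actin and SRF lists, 45 were lower, 7 of them with an unadjusted p under 0.05, and 1 was higher with such a p (FOSB). The share that was lower was 64.3%, against 47.9% of all genes tested. The share that was lower with such a p was 10%, against 3.62% of all genes. None of the 70 genes passed the criteria and their median was -0.05. The Arp2/3 complex, which nucleates branched filaments, had 5 of 9 genes lower, none with an unadjusted p under 0.05 in either direction, and a median of -0.01. Its subunit ARPC5 had the smallest p, with a log2 fold change of -0.18 (SE 0.13, adjusted p = 0.971). The WASP and WAVE proteins that activate it had 4 of 8 lower, again none with such a p, and CYFIP1 of the WAVE complex came nearest at -0.22 (SE 0.13, adjusted p = 0.939). Whether these lists differ from the contractile genes was not tested.

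Of 29 other tested actin binding proteins, 21 (72.4%) were lower, against 47.9% of all genes tested. An unadjusted p under 0.05 was reached by 5 (17.2%), each lower, against 3.62% of all genes in that direction. SPTBN1, a spectrin of the membrane skeleton, and FSCN1, a filopodial bundler, were at -0.43 and -0.35. Of 9 tested SRF partners and immediate early targets, 4 were lower. FOSB, an immediate early transcription factor, had 11, 13 and 22 reads in Control and 270, 16 and 17 in CLs, so that CLs-1 alone stood out. Its log2 fold change was 2.46 with all samples and 0.12 without CLs-1. EGR1 had 3, 7 and 27 reads in Control and 70, 10 and 10 in CLs, highest in CLs-1 too. The EGR1 log2 fold change was 1.08 with all samples and -0.29 without CLs-1.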

How the data were processed

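Total RNA from 6 samples was sequenced single-end on Ion Proton. The authors aligned reads with MapSplice to hg19 and deposited raw counts per gene; the submitters' notes name HTSeq 0.6.1 and GRCh37. Strand and multi-mapping settings are not given in the sources used here, so paralogs, pseudogenes and antisense genes may share reads. The authors tested counts with EBSeq, which was not run here.

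Counts were fitted across all genes with edgeR 4.0.16 in R 4.3.3 (filterByExpr, TMM, quasi-likelihood F test on condition alone, Benjamini-Hochberg over 15047 genes), with adjusted p under 0.05 and a fold above 1.5 or below 0.67 as criteria, which are those of the study. CPM are TMM-scaled. Standard errors were derived from the F statistic. DESeq2 1.42.0, other scalings, filters, a replicate block, leaving out each sample and adding pseudogene reads were alternatives; leaving out both samples numbered 3 was chosen after seeing the data. Scripts were tested on simulated data. Shares of family reads were compared by exact two-sided permutation tests. Transcript lengths and coding identity came from GENCODE 29 (GRCh38) and promoters from RefSeq GRCh38.p14, other builds than that of the counts, and were used by gene name. All 43 members were accounted for; values in every sample were given for those with an unadjusted p under 0.05, SRF, MKL1, MKL2 and the untested members, and up to 3 genes with the smallest p were named per other list. Values in every sample of further members and ACTG2 were added after seeing the data. Some results of the other lists are not reported here. Members and lists were chosen with earlier results of these data known.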

Additional observations from a re-analysis of the deposited data

How the results depend on the processing

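The direction of the members' median was the same under all 16 alternatives, from -0.38 to -0.29 on the log2 scale, and scaling moved the median of all genes by less than 0.1. The number of members past the criteria was 0 in the main test, 5 without a filter on low counts and 7 with DESeq2. In the same order, all genes past them numbered 13 of 15047 tested, 171 of 25432 and 107 of 15047. In the list of SRF partners the number was 0, 2 and 1. It was 1 without both samples numbered 3, where all genes past the criteria numbered 20 of 15164 tested. With the replicate number as a block, 1 member (TPM1) and 1 SRF partner (MYOCD) passed the criteria, among 68 genes (0.452% of those tested). MYOCD was tested only through its Control reads. The numbers were not taken to pair the samples: same-numbered samples correlated at 0.111, 0.0987 and 0.305, number 2 not above 0.1, although all 6 samples correlated best with their own number. Log2 fold changes near 0 changed sign: FLNC was 0.0051 with upper quartile scaling, 0.0339 with library size alone, 0.0096 without a filter and 0.21 without both samples numbered 3, MYL12B was 0.0029 with library size alone and MKL2 was 0.0234 without both samples numbered 3. Leaving out 1 sample at a time gave -0.55 to 0.22 for FLNC, -0.29 to 0.37 for ACTA2, -0.28 to 0.0284 for TPM3, -0.12 to 0.0739 for MYL12B, -0.086 to 0.10 for FHL1, -0.20 to 0.11 for MKL2 and -0.32 to 0.0692 for ENAH. The differences in family share, in percentage points of CLs minus Control, were -1.68 to 1.06 for TPM4 and -3.32 to 0.16 for ACTN1. The cause was not tested. MYOCD, CNN1 and CNN3 lay near the floor of 3 reads, so depth limits their values.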
